A study of Mus musculus with 4 samples.

Results

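The genes described here encode the proteins of the cytosolic ribosome, in macrophages, dendritic cells and other myeloid cells of atherosclerotic mouse aorta. Members were chosen by name alone: every symbol of Rpl or Rps followed by a digit, with Rplp0, Rplp1, Rplp2 and Rpsa, without the Rps6k kinases and without symbols marked as pseudogenes. This gave 86 genes of the 18825 in the count table, 52 named for the large and 34 for the small ribosomal subunit. All 86 were found in GENCODE M21 on GRCm38, on 19 chromosomes with 4 on X. The annotation calls 85 of them protein coding and 1, Rpl6l, a processed pseudogene. The name rule also takes in Rps19bp1, which encodes a protein that binds Rps19 and is not a part of the ribosome, and it leaves out ribosomal proteins with other names, such as Fau and Rack1, whose symbol here is Gnb2l1.

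All cells came from Apoe-/- mice, which lack apolipoprotein E and develop plaques, and all mice had eaten a western diet for 13 weeks, so there is 1 group and no untreated control. Live aortic leukocytes carrying CD45 from 6 mice were sequenced by the 10x Genomics 3′ method in 2 biological replicates of 2 libraries each, and the 3002 cells that the submitters kept as myeloid are analysed here in their 14 deposited clusters, numbered 0 to 13. The sources used here give neither age nor sex, nor how many of the 6 mice went into each replicate, so p-values do not measure the spread between mice. In the main fit the replicate is a block. Its p-values measure how far differences between clusters varied from replicate to replicate, over all 14 clusters. The libraries held 236 to 1231 cells with medians of 4196 to 6672 unique molecular identifiers (UMIs, the tags by which captured transcripts are counted), and shared 0 cell barcodes. Summed by cluster and replicate, the counts gave 28 sums of 34464 to 1961236 UMIs.

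A ribosome has a small subunit, which reads the messenger RNA, and a large subunit, which joins amino acids. The whole ribosome contains nearly every ribosomal protein once. Cells therefore make these proteins in balanced amounts, and their messenger RNAs, among the most abundant in a cell, carry a pyrimidine-rich start through which growth signalling sets their translation. Some family members have a close relative encoded elsewhere in the genome, such as Rps27l beside Rps27 and Rpl22l1 beside Rpl22.

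The starts of 2 such families are shown as examples, because Rps27l and Rpl36al passed the test in comparisons where Rps27 and Rpl36a did not. These comparisons are described further on. Other relatives parted too: with DESeq2 size factors, Rpl22l1 was called higher in cluster 6 and Rpl22 was not. Rps27 and Rps27l were both called lower in macrophages than in dendritic cells. The difference between relatives was not tested. Each sequence is 60 bases before to 20 bases after the transcript start of the RefSeq table on GRCm38.p6, from 5′ to 3′ on the strand of the gene. Capitals mark CTTCCG or its reverse complement, which is the core of sites for ETS factors, and CTTTTC or CTTTCC within 12 bases of the start on the gene's strand. The windows are at chr3:90213629-90213708 (minus) for Rps27, chr9:114982720-114982799 (minus) for Rps27rt, chr9:66946026-66946105 (plus) for Rps27l, chrX:134585594-134585673 (plus) for Rpl36a and chr12:69184048-69184127 (minus) for Rpl36al.
Rps27: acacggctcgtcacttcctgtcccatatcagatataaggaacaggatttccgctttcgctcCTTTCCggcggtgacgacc
Rps27rt: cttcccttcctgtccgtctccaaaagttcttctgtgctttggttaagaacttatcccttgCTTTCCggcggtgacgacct
Rps27l: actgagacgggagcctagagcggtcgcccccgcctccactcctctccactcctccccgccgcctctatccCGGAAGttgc
Rpl36a: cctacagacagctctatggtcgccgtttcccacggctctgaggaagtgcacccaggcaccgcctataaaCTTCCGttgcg
Rpl36al: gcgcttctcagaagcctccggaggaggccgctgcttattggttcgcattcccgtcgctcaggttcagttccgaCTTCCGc

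Rps27 and Rps27rt share the stretch that begins with CTTTCC at their starts, and the window of Rps27l holds neither form of that motif there. Over all members, 65 had a promoter in the table, and CTTCCG on either strand stood in the 300 bases (250 before to 50 after the start) of 43 of them, or 66.2%, beside 22.2% of all 16527 promoters. The pyrimidine motif CTTTTC or CTTTCC stood within 12 bases of the start in 12 of 65, or 18.5%, beside 1.68% of all promoters. AAGATGG, the core of sites for YY1, stood on either strand in 9 of 65, or 13.8%, beside 6.44% of all. No motif of the 3 contains another. A match describes these letters only, and a start placed a few bases away moves the window.

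Ribosomal protein transcripts made up 2276946 of 15893384 UMIs, or 14.3%. The share was 14.1% in replicate 1 and 14.5% in replicate 2, and 14.1% to 14.7% in the 4 libraries. At least 1 UMI was found in over 90% of cells for 56 of the 86 genes. Reads of near-identical copies can be split or lost in counting, and the 16 dropped pseudogene symbols held 6149 UMIs, or 0.270% of the members' UMIs. That split is larger for some genes: Rpl27-ps3 held 16.7% as many UMIs as Rpl27, and Rps12-ps3 held 5.28% as many as Rps12.

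Clusters are named from markers, and each name means cells like that type. A marker counted here where its level was at least 2 times the mean of the other clusters. Cluster 0 met this for 12 of 12 resident macrophage markers, cluster 2 for 9 of 12 of these and 9 of 12 inflammatory ones, and cluster 3 for 9 of 12 resident ones. Cluster 8 met it for 12 of 12 foamy macrophage markers and cluster 13 for 7 of 8 cavity macrophage markers. Clusters 4, 11 and 12 met it for 7 of 8 markers of type 2 dendritic cells, 8 of 8 of type 1 dendritic cells and 8 of 9 of mature dendritic cells. Cluster 5 was monocyte-like with 9 of 10, cluster 7 neutrophil-like with 8 of 8, cluster 9 fibroblast-like with 6 of 6 and cluster 6 held 9 of 9 proliferation genes. By fold, haemoglobin genes led cluster 3, with Ccl8 as its 1 resident marker among the top 10, and Gzma and Il17a stood among the leading genes of cluster 6. Clusters 1 and 10 reached too few markers for a name. Cluster 1 was compared as a macrophage cluster, although it met the bound for 1 of 7 general macrophage markers and 2 of 12 foamy ones. Of the other clusters compared as macrophages, 0, 2, 3, 8 and 13 met it for 5, 4, 2, 1 and 1 of the 7. Cluster 13 also met it for 4 of 10 monocyte markers. Neutrophil-like cluster 7 did so for 5 of 10 of these and for 11 of 12 inflammatory macrophage markers, more than cluster 2.

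The share of a cluster's UMIs that came from ribosomal protein genes ranged from 6.00% ± 0.738 (SD, n = 2) in the neutrophil-like cluster 7 to 22.1% ± 2.18 (SD, n = 2) in the resident-like cluster 3. Of the dendritic clusters 11 and 4 followed cluster 3: type 1 cluster 11 held 20.1% in replicate 1 and 19.4% in replicate 2, and type 2 cluster 4 held 18.4% and 19.2%. Foamy-like cluster 8 held 16.7% and 19.4%, and mature dendritic cluster 12 held 16.3% and 15.4%. These values are a description, since the submitters drew the clusters from these very counts.

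Among the larger macrophage clusters the share was lower. Cluster 0 held 10.4% and 11.5%, cluster 2 held 11.8% and 12.3%, and cluster 1 held 14.03% and 14.06%. Monocyte-like cluster 5 held 14.4% and 14.5%, proliferating cluster 6 held 15.0% and 15.2%, and fibroblast-like cluster 9 held 12.5% and 13.6%. Of the 13 neighbouring pairs in this order, 4 had overlapping replicate values: 4 with 8, 8 with 10, 10 with 13 and 13 with 12. Cluster 10, with 14.3% and 18.3%, had the widest gap between replicates. Its library 2-1 stood at 24.3% in 13 cells, and library 2-2 of the same replicate at 15.0% in 24 cells.

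**Figure D1:**
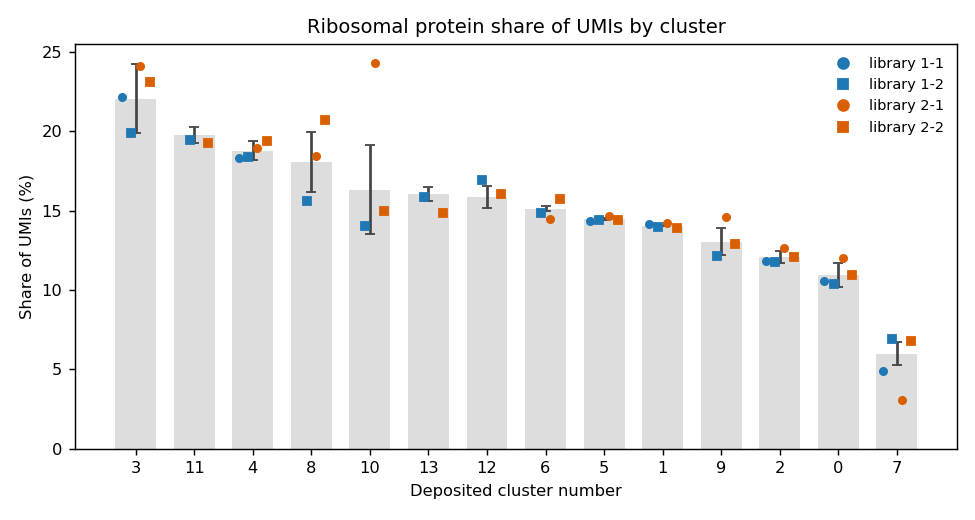
Share of UMIs (%, y axis) from ribosomal protein genes in each deposited cluster (x axis, ordered by the mean). Bars are means and error bars SD over 2 biological replicates, and points are libraries with at least 10 cells of the cluster. Cluster 3 stands highest at 22.1% and cluster 7 lowest at 6.00%.

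Clusters 3 and 8 differ from the other macrophage clusters in depth and in nuclear RNA. Their median cells held 834 and 980 UMIs, beside 4404 in cluster 0, and the nuclear transcript Malat1 stood at 1117 ± 987 and 389 ± 145 CPM (SD, n = 2; UMIs per 1000000 of the sum), beside 12007 to 26716 in the other clusters. The part of either in the share was not tested. Among cells under 1500 UMIs, the 283 of cluster 3 held 23.2%, the 78 of cluster 8 held 19.0% and the 69 of cluster 10 held 16.1%, with medians of 788, 777 and 759 UMIs. The 53 such cells of cluster 7 held 3.798%, the 17 of cluster 0 held 10.3% and the 10 of cluster 1 held 11.4%, and these were deeper, with medians of 1240, 1225 and 1230.5 UMIs. Within cluster 3 the median share was 23.1%, 21.3% and 21.7% in the 3 depth groups of its cells, from shallow to deep.

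Haemoglobin transcripts also stood in cluster 3, at 27912 CPM for 5 erythroid genes in replicate 1 and 42.4 in replicate 2. In 1 cell of replicate 1 these genes took over 10% of the UMIs, and without it the share in cluster 3 was 21.2% in replicate 1 and 23.6% in replicate 2. In cluster 7, where the erythroid genes reached 16274 and 11.2 CPM, the share without 1 such cell was 6.57% and 5.48%. With every cell thinned to 500 UMIs, the median cell held transcripts of 54 of the 86 genes in cluster 3, 51 in cluster 11, 50 in cluster 4, 36 in cluster 0 and 18 in cluster 7. Without thinning the order differed, with medians of 65, 81, 80, 76 and 41 in the same clusters. Every cell had at least 502 UMIs, so none was left out by the thinning. In cluster 13, 25 of 41 cells held a UMI of the T cell markers listed, and without them its share was 17.2% ± 0.693 (SD, n = 2). Cd2, 1 of the 5 markers listed, was among the 10 leading genes of cluster 13 by fold, and all 5 had counts there. The part of Cd2 in the number of these cells was not tested.

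Nearly all members followed the module. Of the 80 genes with a mean of at least 100 CPM over the clusters, 75 had a Pearson r over 0.8 between their log2 level and the module's share over the 28 sums, with a median of 0.94. The same held for 31 of 1270 other genes, or 2.44%, whose median r was -0.05. The sums share depth, libraries and the total they were divided by, and each member is a part of the share, so these values are a description.

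The lowest correlations among members were 0.45 for Rps27l, 0.72 for Rplp1, 0.74 for Rpl22l1, 0.75 for Rps29 and 0.78 for Rps27. Outside the name rule, the 8 closest genes were Naca (0.95), a nascent chain chaperone subunit, Eef1a1 (0.94), Eef1b2 (0.93) and Eef1g (0.91), which belong to the elongation factor that delivers transfer RNA, Gnb2l1 (0.93), Npm1 (0.91), which acts in ribosome assembly, and the ATP synthase subunits Atp5h (0.93) and Atp5g2 (0.90). The 4 lowest were Tgoln1 (-0.89), Hcar2 (-0.82), the initiation factor Eif1 (-0.78) and Irg1 (-0.78).

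Levels followed the same order for most genes: 52 of 86 were highest in cluster 3, 14 in cluster 11, 9 in cluster 8 and 6 in cluster 12, and 80 of 86 were lowest in cluster 7. UMIs of a 3′ library are not scaled to length, so levels are compared between clusters and not between genes. Rps24, a small-subunit protein, stood at 5436 and 7038 CPM in replicates 1 and 2 of cluster 3, at 2838 and 3102 in cluster 0 and at 1609 and 1063 in cluster 7. Rps9, also of the small subunit, reached 5006 and 5219 in cluster 4 and 2180 and 1700 in cluster 7. Rpl13 and Rpl23, both of the large subunit, had their lowest means in cluster 7 too, at 1100 and 1308 CPM, and their highest at 4765 in cluster 11 and 5163 in cluster 3. For all 4 the replicates of cluster 7 lay below every replicate of every other cluster.

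The makeup of the module, which is each gene's percentage of the summed ribosomal protein UMIs, varied little over the clusters for most genes. The SD of log2 makeup over the 14 clusters had a median of 0.16 over the 80 genes and was smallest for Rps10, at 0.05. It was largest for Rps27l, Rpsa, Rplp1, Rps19, Rpl22l1 and Rps29. Small-subunit genes summed to 0.807 ± 0.00992 (SD, n = 2) of the large-subunit genes in cluster 8 and 0.937 ± 0.0186 in cluster 12, and the other 12 clusters lay between 0.869 and 0.901.

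**Figure D2:**
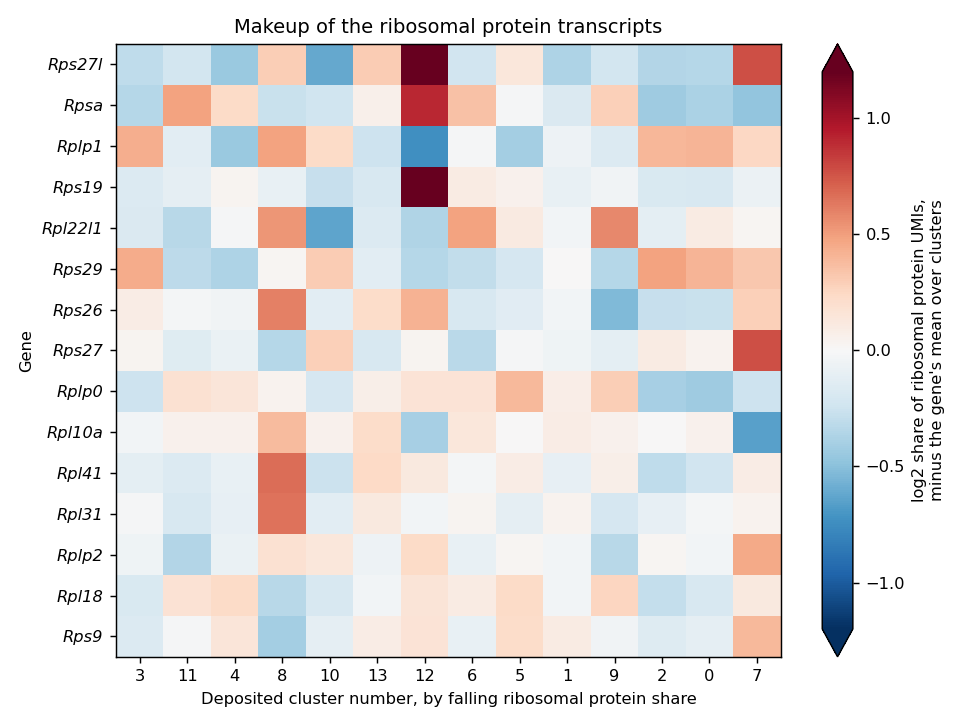
Makeup of the module for 15 genes of at least 100 CPM (y axis), chosen among those that varied most over the clusters (x axis). Colour is the log2 share of ribosomal protein UMIs minus the gene's mean over clusters; arrows on the colour bar mark values beyond the scale. Cluster 12 stands out for Rps27l, Rps19 and Rpsa, cluster 8 for Rpl41, Rps26 and Rpl31, and cluster 7 for Rps27l and Rps27.

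Rps27l, a relative of Rps27 that is known as a target of p53, was the gene least tied to the module. In mature dendritic cluster 12 it stood at 816 and 1083 CPM in the 2 replicates. All 26 other sums lay between 145 and 491, the highest in cluster 8. Its percentage of the module was 0.602 ± 0.146 (SD, n = 2) in cluster 12 and 0.343 ± 0.151 in cluster 7, and no more than 0.248 elsewhere. Rps27 itself stood at 899 and 890 CPM in cluster 12, inside its range of 548 to 1334 over all sums. Rps27rt, the copy whose start resembles that of Rps27, was scarce, with at most 59.96 CPM in any sum.

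Rps19, a small-subunit protein whose human counterpart is mutated in Diamond-Blackfan anaemia, was also highest in cluster 12. It stood at 6416 and 4804 CPM there, at 2718 and 3309 in cluster 3, and at no more than 2989 in the other 12 clusters. The 2 replicates of cluster 12 lay above all others, and were farther apart from each other than those of clusters 4, 11 and 0. Rps19bp1, by contrast, stood at 11.99 and 19.9 CPM in cluster 12, and had only 386 UMIs in all cells.

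Rpsa, which encodes the small-subunit protein also known as the laminin receptor, was high in all 3 dendritic clusters. It stood at 5013 and 5196 CPM in cluster 12, while cluster 11 had 4928 and 4640 and cluster 4 had 3867 and 3758. In resident-like cluster 0 it stood at 1454 and 1441, and in cluster 2 at 1573 and 1532. The dendritic sums lay above all macrophage sums, of which the highest was 3211 in cluster 13.

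The stalk of the large subunit, which recruits elongation factors, is formed by Rplp0 with Rplp1 and Rplp2. Of these genes, Rplp0 and Rplp1 took different orders over the clusters. Rplp1 was highest in clusters 3 and 8, at 6152 and 7703 and at 5096 and 6648 CPM, and stood at 2039 and 2352 in cluster 12. Rplp0 was highest in cluster 11, at 3360 and 3391, and stood at 1206 and 1230 in cluster 0 and 1344 and 1412 in cluster 2. In clusters 0 and 2 Rplp1 stood at 3115 to 3839, above its own level in cluster 12. Rplp2 ranged from 682 in cluster 7 to 2376 in cluster 3, the clusters in which Rplp1 also had its lowest and highest means. Within the module, Rplp0 took 1.12% in cluster 0 and 1.97% in cluster 5, whereas Rplp1 took 3.09% in cluster 0 and 1.75% in cluster 5.

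Rps29, a small-subunit protein, was highest in cluster 3 as Rplp1 was, with 3670 and 4488 CPM in cluster 3 and 1.05% of the module in cluster 4 beside 1.89% in cluster 2. Rpl22l1, a relative of Rpl22 known to take its place in some cells, stood at 582 and 519 CPM in cluster 8, beside levels of 408 and 491 in cluster 6 and only 134 and 123 in cluster 7. Rpl22 took 0.625% to 0.735% of the module in every cluster. Of the other related genes, Rpl36a and Rpl36al stood at 355 and 427 and at 343 and 345 CPM in cluster 0, and at 679 and 710 and at 644 and 653 in cluster 4. The muscle gene Rpl3l had 1 UMI and Rpl39l, known from testis, had 24 in all cells, and these were the 2 members that did not pass the filter on low counts.

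**Figure D3:**
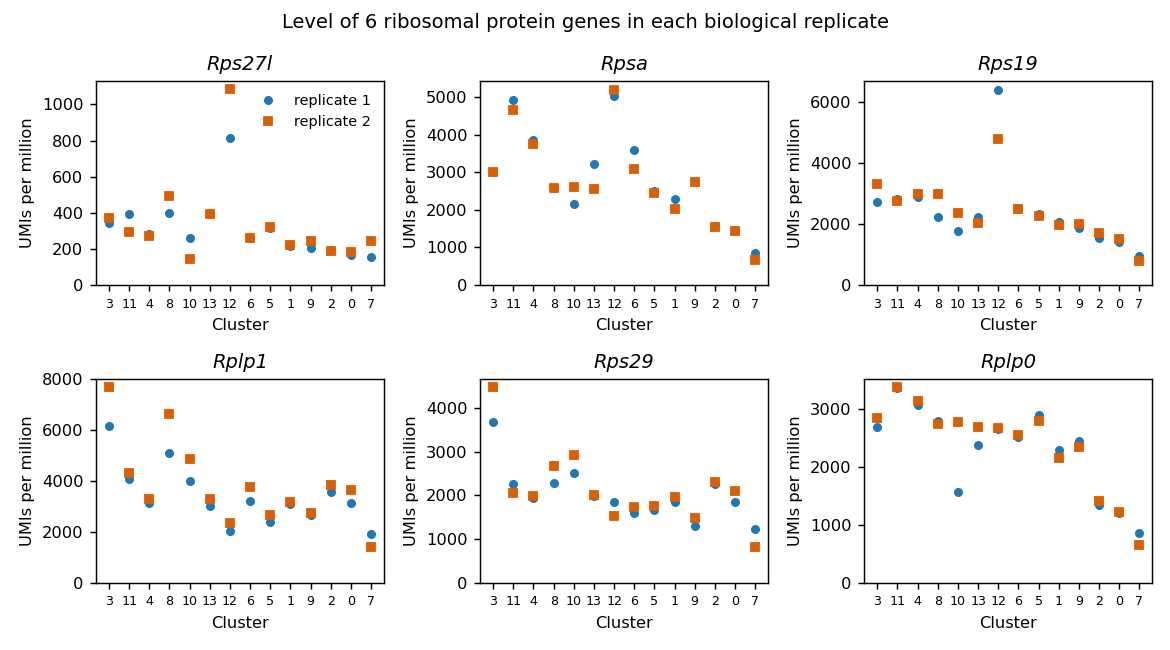
Level (CPM, y axis) of 6 ribosomal protein genes in every cluster (x axis, ordered by the module's share), with 1 point for each biological replicate. Both replicates of cluster 12 stand above all other clusters for Rps27l and Rps19. Rplp1 has its highest mean in cluster 3 and Rplp0 in cluster 11.

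The 5 comparisons between clusters were fitted with edgeR, on 6657 genes that passed the filter, 84 of the 86 members among them. Calls are Benjamini-Hochberg adjusted p values under 0.05, and these p values are too small, because the clusters were made from the counts that are tested. The scaling matters for genes that together hold a large part of the UMIs. Trimmed mean (TMM) scaling is the main one, and a second fit scaled to the summed member UMIs shows which genes moved within the module.

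**Figure D4:**
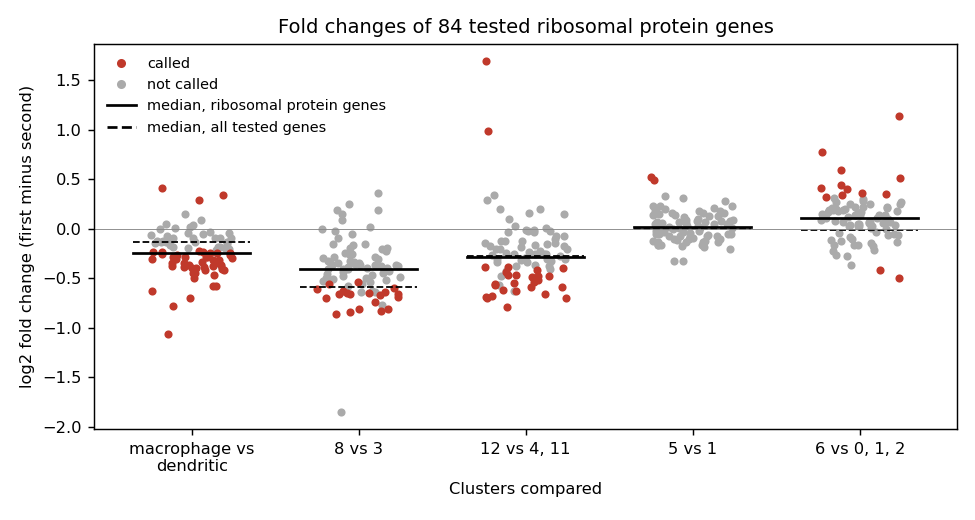
The log2 fold changes (y axis) of the 84 tested ribosomal protein genes in 5 comparisons (x axis), with called genes in red, the members' median as a solid line and the median of all tested genes as a dashed line. Members lie mostly below 0 for macrophages against dendritic cells, and Rps27l stands apart at 1.69 in cluster 12.

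Averaged over clusters with equal weight, macrophage clusters (0, 1, 2, 3, 8 and 13) had a share of 15.5% ± 0.942 and dendritic clusters (4, 11 and 12) one of 18.1% ± 0.203 (SD, n = 2). The clusters overlapped, with cluster 3 above all dendritic clusters and the means of clusters 8 and 13 above that of cluster 12. Of 84 members, 45 fell and 3 rose, beside 18.6% of all tested genes called lower and 10.6% called higher. The members' median log2 fold change was -0.24 and that of all tested genes -0.13.

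Rpsa differed most, at 2351 and 2188 CPM in macrophages against 4603 and 4532 in dendritic cells, a log2 fold change of -1.06 (SE 0.0789, edgeR adjusted p = 7.14e-14). Rps19 followed at -0.78 and Rps27l at -0.70, and for both cluster 12 stood above the other 2 dendritic clusters. Rpl18 of the large subunit changed by -0.63 and Rplp0 by -0.58. The nuclear transcript Malat1 differed too (-1.59), with clusters 3 and 8 at 1117 and 389 CPM. Macrophage clusters 0, 1, 2 and 13 stood at 13694.5 to 21559 CPM, inside the range of the dendritic clusters, 12128 to 26715.5. The part of Malat1 in the counts was not tested. By subunit, 25 of 50 large-subunit and 20 of 34 small-subunit genes fell.

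Rplp1 rose by 0.41 (SE 0.0865, edgeR adjusted p = 2.75e-04), from 3082 and 3315 CPM in dendritic cells to 4001 and 4718 in macrophages. Rps29 rose by 0.29. The 3 higher calls were lost without the shallow clusters 3 and 8, where 0 members rose and 71 fell, beside 17.3% and 12.3% of 8589 tested genes, the members' median was -0.44 and that of all genes 0.17. Rplp1 then stood at 0.09 (adjusted p = 0.499) and Rps29 at 0.07 (adjusted p = 0.662), and Rpsa at -1.25.

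Scaled to the module's own sum, 14 members rose and 10 fell in macrophages, beside 16.4% and 11.1% of all genes, whose median moved from -0.13 to 0.12. Rplp1 took 2.78% of the module in macrophages and 1.74% in dendritic cells, and Rps29 took 1.58% and 1.07%. Rpsa took 1.46% and 2.56%. Leaving out the cells rich in haemoglobin gave 3 higher and 45 lower, beside 10.5% and 18.5% of all genes. With each cell thinned to 500 UMIs, 3 of the 80 members tested rose and 4 fell in a fit of 1277 genes, with a median of -0.05 for the members and 0.21 for all genes. The number of lower calls depended on the libraries: 45 with all, 39 without library 1-1, 53 without library 2-1, 10 without library 1-2 and 6 without library 2-2. In each of the last 2 fits some clusters kept the sum of 1 replicate, 11, 12 and 13 in both and 8 in the former, and were taken to vary like the others. Rpl18, Rps19 and Rpsa were among the genes called lower in every setting run, with the member-sum scaling and each left-out library among them.

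Other genes of translation were measured from lists chosen beside the members, to be read against the 18.6% of all genes called lower and 10.6% called higher. Of ribosomal proteins outside the name rule, Fau fell by 0.25 and Gnb2l1 fell by 0.24 on the log2 scale. Of 11 genes on an elongation and nascent chain list 7 fell and 0 rose, with Btf3, which pairs with Naca on nascent chains, at -0.67, Eef1b2 at -0.55 and Naca at -0.48. Of 30 initiation factors 13 fell and 0 rose, with Eif3g, Eif3m and Eif3d, subunits of the factor that binds the small subunit, at -0.78, -0.75 and -0.71.

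Ribosome assembly genes were mostly not called, with 2 of 23 tested lower (Nhp2 at -0.59 and Npm1 at -0.24) and Nop10 higher at 0.66. Among 15 regulators of ribosomal protein synthesis 4 fell and 1 rose. The riser was Eif4ebp1, which holds back cap-dependent initiation. It stood at 39.7 and 65.9 CPM in dendritic cells and 94.99 and 96.0 in macrophages, a log2 fold change of 1.03. Both Eif4ebp1 and Nop10 were lower in the mature dendritic cluster than in the other dendritic clusters, as described further on. The rises of these genes therefore rest in part on that cluster, and were not tested without it. Ddit4, an inhibitor of mTOR signalling, was lower at 8.72 and 3.797 against 26.5 and 25.3 CPM. Of 6 genes of ribosome quality control 2 fell, Gnb2l1 and Nemf, which marks stalled chains and changed by -1.92. Of the lists for other cells, 0 of 4 T cell, 0 of 1 B cell and 0 of 5 erythroid genes tested were called, 1 of 2 smooth muscle genes (Acta2) was higher, and 0 of 5 endothelial genes passed the filter.

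Foamy-like cluster 8 was compared with resident-like cluster 3, the other macrophage cluster of shallow cells. The module held 18.1% ± 1.87 of UMIs in cluster 8 and 22.1% ± 2.18 in cluster 3 (SD, n = 2). Of 84 members 20 fell and 0 rose, beside 4.52% of all genes called lower and 1.91% called higher. Yet the median of all tested genes was -0.58, below the members' -0.41, and the count changed with the scaling.

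Rps29 stood at 2293 and 2662 CPM in cluster 8 and 3670 and 4488 in cluster 3 (log2 fold change -0.86, SE 0.182, edgeR adjusted p = 1.36e-03). Rps3a1 at -0.84, Rpl35a at -0.83, Rps27 at -0.81 and Rps15 at -0.81 followed. With DESeq2 size factors in edgeR the all-gene median was -0.24, 0 members fell and 1 rose, Rpl41 by 0.71, beside 2.24% and 3.05% of all genes called lower and higher. Scaled to the module's sum the all-gene median was -0.15, and 0 fell and 2 rose, beside 1.85% and 3.26% of all genes: Rpl41, the smallest ribosomal protein, by 0.79 from 0.808% to 1.39% of the module, and Rps2, a core protein of the small subunit, by 0.58 from 1.34% to 1.99%.

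Leaving out the cell rich in haemoglobin gave 20 lower and 0 higher, beside 4.03% and 1.86% of all genes. Without library 1-1 the count of lower members was 8, and without library 2-2 it was 0. It was also 0 without library 1-2, where cluster 8 kept the sum of 1 replicate and was taken to vary like the other clusters. The nuclear transcript Malat1 was lower in cluster 8, at 491 and 287 against 1815 and 420 CPM, and its part in the result was not tested. Of the lists for other cells 0 of 5 erythroid genes were called, and the 1 B cell gene tested, Jchain, was lower, at 342 and 0 CPM in cluster 3 and listed at 0 in both replicates of cluster 8. The B cell list summed to 366 and 28.3 CPM in cluster 3 and to 18.2 and 0 in cluster 8, and its part was not tested. Outside the name rule, the ribosomal protein genes Fau and Gnb2l1 changed by -0.79 and -0.62, and 0 of 11 genes on the elongation and nascent chain list were called. Of 30 initiation factors Eif4a1, an RNA helicase, rose by 0.92 and Eif4b, its partner, changed by -1.52.

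Mature dendritic cluster 12, which carried the genes of dendritic cells that have left for lymph nodes such as Ccr7, was compared with the mean of clusters 4 and 11. The module's share was 15.8% ± 0.691 against 19.3% ± 0.0407 (SD, n = 2). Of 84 members 25 fell and 2 rose, beside 11% of all genes called lower and 9.51% called higher. The members' median was -0.28 and that of all genes -0.27, so that the members as a whole moved about as much as the typical gene.

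The 2 risers stood far from the rest. Rps27l rose by 1.69 (SE 0.175, edgeR adjusted p = 1.02e-09), from 339 and 281 CPM in clusters 4 and 11 to 816 and 1083. Rps19 rose by 0.99 (SE 0.145, edgeR adjusted p = 1.60e-06), from 2861 and 2873 to 6416 and 4804. Rps27l was called in every setting run, and the call of Rps19 was lost without library 2-2 (1.06).

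Among the genes that fell were Rplp1 (-0.70), Rpl10a (-0.70), Rpl32 (-0.69) and Rps6 (-0.68), the last the substrate of S6 kinase. Rplp1 went from 3604 and 3796 CPM to 2039 and 2352. Scaled to the module's sum 6 members rose and 6 fell, beside 11.5% and 6.96% of all genes, whose median moved from -0.27 to -0.03. Rps27l rose by 1.94, Rps19 by 1.24 and Rpsa by 0.55, with Rplp2, Rpl7a and Rps26, and Rpsa went from 2.22% to 3.23% of the module. Rpsa by itself missed the threshold under TMM scaling, at 5013 and 5196 against 4397 and 4199 CPM (adjusted p = 0.142), and passed it with DESeq2 size factors (0.50).

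With DESeq2 size factors 3 members rose and 8 fell, beside 11.2% and 8.08% of all genes, whose median was then -0.08. The count of lower members under TMM was 9 without library 1-1 and 17 without library 2-1. Without library 1-2, and likewise without library 2-2, clusters 11 and 12 each kept the sum of 1 replicate, which was taken to vary like the other clusters, and 0 members fell. Malat1 was higher in cluster 12 (0.92), and its part was not tested. Of 23 genes of ribosome assembly tested 5 fell and 0 rose, beside 11% of all genes called lower; their median was -1.03 and that of all genes -0.27. Fbl, the methyltransferase of ribosomal RNA, stood at 24.0 and 19.9 CPM against 184 and 163 (log2 fold change -2.94, SE 0.474, edgeR adjusted p = 8.67e-06). Nop58 of the same particle changed by -2.07 and Nop10 by -1.52. Low levels in cluster 12, here and below, rest on few UMIs, as its 44 cells held 233882 in all. Of 11 genes on the elongation and nascent chain list 3 fell (Eif5a by 0.90, Eef1b2 by 0.69 and Eef1g by 0.58 on the log2 scale) and 0 rose.

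Of 30 initiation factors 3 were higher and 2 were lower, beside 9.51% and 11% of all genes called higher and lower. Eif1ax rose by 1.09 and the helicase Eif4a2 by 0.77, whereas Eif5b changed by -1.28 and the poly(A)-binding protein Pabpc1 by -0.67. Among regulators, 1 of 15 rose and 3 fell. Tsc1, which restrains mTOR signalling, stood at 95.9 and 66.4 CPM against 16.5 and 12.4, a rise of 2.56 (SE 0.554) on the log2 scale. Maf1, which restrains RNA polymerase III, changed by -2.58, Eif4ebp1 by -2.06 and the kinase gene Rps6ka1 by -2.36.

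Monocyte-like cluster 5 differed little from macrophage cluster 1 in this module. The share was 14.5% ± 0.0885 against 14.04% ± 0.0208 (SD, n = 2), and 2 of 84 members rose and 0 fell, beside 7.26% of all genes called higher and 6.83% called lower. The members' median was 0.02. Rps27l rose by 0.52 (SE 0.181, edgeR adjusted p = 0.0466), from 215 and 222 to 316 and 324 CPM. Rpl36al rose by 0.49 (SE 0.170, edgeR adjusted p = 0.0478), from 436 and 442 to 611 and 641, while Rpl36a stood at 475 and 477 in cluster 5 and 503 and 547 in cluster 1. Neither call held with DESeq2 size factors, where edgeR called 0 members in either direction, beside 6.35% of all genes higher and 7.83% lower, and 4 members had an unadjusted p under 0.05. Without library 1-1, 2-1 or 2-2 in turn 0 members were called, and without library 1-2 there was 1. Cluster 1 held 1 haemoglobin-rich cell, and 4 of 5 erythroid genes were lower in cluster 5.

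The lists of other translation genes were mostly not called between monocyte-like cluster 5 and cluster 1, where 7.26% of all genes were higher. Of 15 regulators 2 rose and 0 fell. Ddit4 stood at 62.9 and 30.4 CPM against 6.55 and 2.70, a log2 fold change of 3.23 (SE 0.421, edgeR adjusted p = 3.69e-07). Larp1, which binds messenger RNAs with the pyrimidine-rich start, rose by 0.65. Of 23 assembly genes 2 rose, Mrto4 by 0.92 and Rrp1 by 0.57. Of 11 genes on the elongation and nascent chain list Eif5a rose by 0.58, and of 30 initiation factors 0 were called.

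Cluster 6, with proliferation genes, was compared with the mean of macrophage clusters 0, 1 and 2. It met the marker bound for 0 of 7 general macrophage, 0 of 12 resident macrophage and 0 of 10 monocyte markers. The module's share was 15.1% ± 0.140 against 12.4% ± 0.386 (SD, n = 2). Of 84 members 11 rose and 2 fell, beside 17% of all genes called higher and 16% called lower, so the share of risers was not above the background. The members' median was 0.10.

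Rpsa rose by 0.77 (SE 0.125, edgeR adjusted p = 5.36e-06), from 1770 and 1667 to 3581 and 3077 CPM. Rpl22l1 rose by 0.59, Rplp0 by 0.51 and Rps2 by 0.45. Rpl6l rose by 1.14 at 46.6 and 70.6 against 20.7 and 25.4 CPM, but it is the annotated pseudogene of this set and its reads may be shared with Rpl6, which was not called (0.17, adjusted p = 0.360). Rps29 and Rpl10 changed by -0.50 and -0.42.

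Cluster 6 also carried T cell transcripts: all 5 T cell markers in the table had counts there, with sums of 212 and 394 CPM beside 0 to 7.65 in clusters 0, 1 and 2, and 4 of 4 tested were higher. Of its 135 cells 50 held a UMI of these markers. Without such cells in any cluster the share in cluster 6 was 14.4% and 13.9%, 10 members rose and 3 fell, beside 15.7% and 12.3% of 6462 genes, and Rpsa rose by 0.81, Rplp0 by 0.52 and Rpl22l1 by 0.56. Scaled by library totals alone 38 members rose and 0 fell, beside 25.6% and 9.96% of all genes, whose median moved from -0.01 to 0.19. Scaled to the module's sum 6 rose and 5 fell, beside 13.7% and 19% of all genes, with a median of -0.11. Rpl6l was called higher in every setting that tested it, which the one thinned to 500 UMIs did not. Without library 2-2 only 1 member rose, and without library 2-1 there were 16. Without library 1-2 there was 1, with the sum of 1 replicate left for cluster 6, which was taken to vary like the other clusters. The call of Rpsa was lost without library 1-2 and without library 2-2.

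In cluster 6, where 17% of all genes were called higher and 16% lower, 5 of 23 ribosome assembly genes rose and 0 fell, with Nop56 at 0.71 and Nop58 at 0.51. Of 30 initiation factors 5 rose and 2 fell, with Eif1ax highest at 1.09. Of the 11 genes on the elongation and nascent chain list 2 rose, Eif5a by 0.60 and Eef1e1 by 0.74. Of 15 regulators 2 rose, Ddit4 by 1.72 and the S6 kinase gene Rps6kb1 by 0.54, and Larp4 changed by -0.64. Malat1 changed by -0.83, and its part was not tested.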

How the data were processed

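Droplet 3′ RNA counts of 4 libraries, 2 for each of 2 biological replicates of 1 group, were analysed. Cell Ranger 3.0.2, Seurat 3.1.1 and the build mm10 are named in the submitters' processing notes, and the sources used here do not give cell filters, doublet handling or settings of the clustering. The authors deposited raw UMI counts, whose sums equal the deposited totals in all 3002 cells. A deposited natural log table (counts per 10000 of the cell, plus 1) was recomputed from the counts with differences of at most 6.22e-15 and was not used further. The deposited percent of mitochondrial counts reached 9.99. No doublet caller was run.

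Counts were summed per deposited cluster and biological replicate and fitted together with edgeR 4.0.16 (filterByExpr, TMM, glmQLFit, glmQLFTest, two-sided, R 4.3.3), with a term per cluster and the replicate as a block, because a replicate's libraries run through all its clusters, on 13 residual degrees of freedom. DESeq2 1.42.0 was an alternative. The steps were tested on simulated data. Log2 fold changes average log levels over clusters. The members, lists and comparisons were chosen with earlier results of these data known.

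Named genes were, per comparison, up to 5 highest and 5 lowest called members moving the same way in both replicates with at least 20 counts per 1000000 (CPM), the 5 most abundant members, the stalk genes, related genes, the 6 most variable in makeup, up to 4 called genes of each list, and the 8 highest and 4 lowest correlated other genes. The per-gene examples of clusters in which a member stood high or low were chosen after values were seen, and so were the alternatives that leave out cells with erythroid or T cell transcripts. Markers of B cells, smooth muscle and endothelium were also listed; of 5, 1, 2 and 0 passed the filter. Intervals are not given for summed shares, whose spread is that between replicates. A few members and list genes are not reported here.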

Additional observations from a re-analysis of the deposited data

How the results depend on the processing

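Counts are members called, as higher and lower. For macrophages against dendritic cells (3 and 45), scaling to the member sum gave 14 and 10, 4 libraries as samples gave 0 higher, thinning to 500 UMIs gave 4 lower, and leaving out clusters 3 and 8 gave 0 and 71; left-out libraries gave 0 to 2 and 6 to 53. For cluster 8 against cluster 3 (0 and 20), DESeq2 size factors gave 1 and 0, library totals 10 lower, the member sum 2 and 0, 4 libraries 32 lower, the DESeq2 test 2 and 5; left-out libraries gave 0 and 0 to 20. For cluster 12 (2 and 25), DESeq2 size factors gave 8 lower, the member sum 6 and 6, 4 libraries 4 lower, the DESeq2 test 6 and 13, thinning 5 lower; left-out libraries gave 1 to 2 and 0 to 17. For cluster 5 (2 and 0), DESeq2 size factors, the member sum, no filter on low counts and the fit with no replicate block gave 0 higher, thinning 1 and 2, the DESeq2 test 2 lower; left-out libraries gave 0 to 1 and 0. For cluster 6 (11 and 2), library totals gave 38 and 0, the member sum 6 and 5, no filter 7 higher, 4 libraries 5 higher, the DESeq2 test 19 and 5, thinning 7 and 1; left-out libraries gave 1 to 16 and 0 to 2. With no replicate block cluster 6 had 7 higher and 2 lower, macrophages 3 and 41, cluster 8 had 0 and 17, and cluster 12 had 2 and 18. The cause of these changes was not tested, except that thinning left 1277 genes and left-out libraries leave fewer cells and, without 1-2 or 2-2, some clusters with 1 sum.

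Of the fold changes of named members under alternatives, 442 kept direction and call, 195 kept direction and lost the call, and 6 reversed, all between macrophages and dendritic cells: Rpl7 (0.0448), Rpl39 (0.0284) and Rpl6 (0.0316) under the member sum, and Rpl7 (0.0601), Rpl39 (0.0412) and Rpl36al (0.0859) with thinning. Of the cluster shares, 91 moved by less than 1 SD and 35 by more, at most 6.83 percentage points, in cluster 11 without library 1-2, where replicate 1 is 3 cells. Clusters 8, 10 and 12 rest on the fewest UMIs, which limits what 2 replicates can show there.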
